A study of Mus musculus with 120 samples.

Results

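The genes of mast cell proteases and receptors were followed in biopsies of an implanted immunological niche (IN) as mice passed from normal glucose to diabetes or stayed free of it. The 10 genes were the rows of both deposited count tables that carry the symbols Mcpt4, Cma1, Cpa3, Tpsb2, Tpsab1, Mrgprb1, Mrgprb2, Kit, Fcer1a and Ms4a2. All 10 were found among the 55487 genes that the tables share, of which 41759 had a count in some sample. An IN is a porous polycaprolactone scaffold that is placed under the skin of the back, fills with host cells and can be taken out and replaced repeatedly in the same mouse. Bulk RNA sequencing of ribosome-depleted total RNA from these scaffolds gave 120 samples from female mice of 2 strains. The NOD (NOD/ShiLtJ) mouse develops autoimmune diabetes spontaneously, and the related NOR (NOR/LtJ) mouse does not. Strain and outcome set the groups apart and no treatment did, since mice of all groups received their first scaffolds at 4 weeks of age and had them exchanged by the same surgery.

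NOR mice gave 23 samples from 5 mice, taken every 4 weeks from an age of 6 to an age of 22 weeks. NOD nonprogressors, which kept normal glucose, gave 39 samples, of which 33 from 11 mice are labelled by age in weeks and 6 by days after implantation. NOD progressors gave 58 samples from 10 mice, at 6 weeks of age, at 7, 5, 3 and 1 weeks before onset (written −7, −5, −3 and −1 weeks) and at onset of hyperglycemia. Each sample is 1 scaffold of 1 mouse at 1 time. Batch 1 (74 samples) and batch 2 (46 samples) were sequenced on different instruments and largely hold different cohorts of mice, so cohort and instrument cannot be told apart in comparisons between the batches. All NOR samples were in batch 1. The −7-week samples were all in batch 2, and 4 of these 8 came from progressors 1 to 4, whose other samples were in batch 1. The depth was 4722396 to 56185434 counts a sample in batch 1, with a median of 30186412, while the samples of batch 2 held 29029239 to 43880986 counts with a median of 36440355. The 18-week library of NOR mouse 5 stood apart, with 85.7% of its counts on 1 ribosomal RNA gene, and the 22-week nonprogressor libraries had 16.6% to 38.3% of their counts on the 7SL RNA genes, against 2.47% to 5.39% at 6 weeks in the same batch. The strain and age results are also given without the 22-week samples, and the strain results also without that library of NOR mouse 5.

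Mast cells are long-lived tissue immune cells that store proteases and histamine in granules with heparin and release them within minutes of activation. The connective tissue type lines vessels and nerves of the skin and is known there for responses to allergens, venoms, wounds and implanted materials. Its granules hold chymases (Mcpt4 and the product of Cma1, known as mast cell protease 5), tryptases (the products of Tpsb2 and Tpsab1, also called mast cell proteases 6 and 7) and carboxypeptidase A3 (Cpa3). Mrgprb2 is the receptor through which peptides and many cationic drugs activate mouse connective tissue mast cells without IgE, and Mrgprb1 is a related receptor. Fcer1a encodes the IgE-binding alpha chain and Ms4a2 the signal-amplifying beta chain of the high-affinity IgE receptor. Kit is the receptor for stem cell factor, which mast cells need to mature and survive. Kit is also made by melanocytes, interstitial cells of Cajal, blood progenitors and some epithelia.

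Positions are those of GRCm38. Both chymase genes lie on chromosome 14 (Mcpt4 at chr14:56059629-56062313 and Cma1 at chr14:55941451-55944675, minus strand), and both tryptase genes lie on chromosome 17 (Tpsab1 at chr17:25343245-25345562, minus strand, and Tpsb2 at chr17:25366305-25369098, plus strand). The Mrgprb genes are on chromosome 7 (Mrgprb1 at chr7:48444113-48456342 and Mrgprb2 at chr7:48550965-48558086, minus strand). The others lie apart, with Cpa3 at chr3:20215620-20242181 (minus strand), Kit at chr5:75574916-75656722 (plus strand), Fcer1a at chr1:173221284-173227214 (minus strand) and Ms4a2 at chr19:11615523-11623719 (minus strand). The sequence upstream of the start is shown for Mcpt4, Cma1 and Cpa3, whose levels moved together closely, and for Ms4a2 and Kit. In these samples the level of Ms4a2 moved with them less closely, and that of Kit much less. The sequences are RefSeq promoters of GRCm38.p6, written 5′ to 3′ on the gene's strand, and capitals mark the motif of GATA factors, which is GATA with A or T before it and A or G after it, on either strand.
Mcpt4 (chr14:56062314-56062560): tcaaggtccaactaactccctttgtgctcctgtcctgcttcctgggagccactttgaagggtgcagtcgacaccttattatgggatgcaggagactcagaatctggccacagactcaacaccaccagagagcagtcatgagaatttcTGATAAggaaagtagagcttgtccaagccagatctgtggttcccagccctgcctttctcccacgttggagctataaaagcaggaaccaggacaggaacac
Cma1 (chr14:55944676-55944925): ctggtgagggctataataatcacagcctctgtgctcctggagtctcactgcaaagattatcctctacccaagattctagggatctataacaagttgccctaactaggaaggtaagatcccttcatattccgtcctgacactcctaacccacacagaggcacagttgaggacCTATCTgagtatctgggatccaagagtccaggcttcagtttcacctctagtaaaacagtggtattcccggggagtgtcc
Cpa3 (chr3:20242182-20242431): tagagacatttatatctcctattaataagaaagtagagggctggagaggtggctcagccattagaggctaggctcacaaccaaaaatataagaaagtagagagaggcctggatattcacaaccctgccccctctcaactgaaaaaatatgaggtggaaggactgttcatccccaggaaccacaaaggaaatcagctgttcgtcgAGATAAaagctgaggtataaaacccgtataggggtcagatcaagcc
Ms4a2 (chr19:11623720-11623969): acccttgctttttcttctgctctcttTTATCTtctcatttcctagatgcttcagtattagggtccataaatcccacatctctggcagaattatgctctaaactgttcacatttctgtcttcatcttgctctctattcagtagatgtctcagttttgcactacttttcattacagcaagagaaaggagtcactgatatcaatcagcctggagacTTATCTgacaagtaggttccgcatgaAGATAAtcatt
Kit (chr5:75574737-75574915): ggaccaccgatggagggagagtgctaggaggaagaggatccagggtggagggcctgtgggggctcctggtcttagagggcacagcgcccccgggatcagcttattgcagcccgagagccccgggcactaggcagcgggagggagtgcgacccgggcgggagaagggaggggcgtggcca
Promoters of 8 of the 10 genes were matched in the RefSeq table, those of Tpsb2 and Tpsab1 not being among them. Motifs were searched in the full 250 bases before the RefSeq start, of which the sequence printed for Kit leaves out the last 71 and that for Mcpt4 the last 3, since these lie inside the annotated gene. In these 250 bases, 7 of the 8 held a GATA match, the exception being Kit. Mrgprb1 held 2 and Ms4a2 held 3. Of all 32851 promoters of that length, 26.5% held a match. The E-box letters CACGTG and CATGTG, a motif of the factor MITF, had a match in 1 of the 8 (Fcer1a), against 17.6% of all promoters, and no GATA match overlapped an E-box or the letters TATAAA. Such a match describes the letters only and is not evidence of binding.

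Levels are given as CPM, a gene's count relative to the total of its library, with totals scaled by the TMM method over all 120 samples. Per kilobase of exon, the highest median level over the samples of batch 1 was that of the chymase Mcpt4 (3.89 CPM per kb), followed by the tryptase Tpsb2 (3.02), Cma1 (2.68), Cpa3 (1.63), Kit (0.881) and the tryptase Tpsab1 (0.572). In batch 2 the order differed, with Cma1 first (4.81 CPM per kb) before Mcpt4 (4.35), Cpa3 (2.84), Tpsb2 (2.64), Kit (1.29) and Tpsab1 (0.436). The other receptors were lower in both, with medians of 0.057 and 0.238 CPM per kb in batches 1 and 2 for Fcer1a, 0.0513 and 0.124 for Mrgprb1, 0.0356 and 0.095 for Mrgprb2 and 0.0441 and 0.0538 for Ms4a2. Counts of the proteases were well above zero in nearly all libraries (median 140 for Mcpt4 and 143 for Tpsb2), while Fcer1a, Mrgprb2 and Ms4a2 had median counts of 3, 4 and 4. At this depth Fcer1a had no count in 27 samples, Mrgprb2 in 22, Ms4a2 in 17 and Mrgprb1 in 4, so that changes of these receptors rest on few counts. Tpsab1, with a median count of 34, had none in 1 sample. In bulk samples, fewer mast cells and less RNA per mast cell cannot be told apart.

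The granule proteases rose and fell together from scaffold to scaffold. Across the 74 samples of batch 1, the 6 pairs among Mcpt4, Cma1, Cpa3 and Tpsb2 had Pearson r of log2 CPM from 0.948 to 0.977, and across the 46 samples of batch 2 from 0.916 to 0.973. The 36 pairs of the 9 genes other than Kit had a median r of 0.813 in batch 1 and 0.812 in batch 2. The 9 pairs with Kit ran from 0.333 to 0.485 in batch 1 and from 0.414 to 0.651 in batch 2. These correlations are descriptions across samples that share mice, libraries and depth. The mean of the 9 genes had an r of −0.354 with the 7SL share of the library in batch 1 and 0.081 in batch 2, and of −0.159 and −0.222 with the log10 total count.

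**Figure D1:**
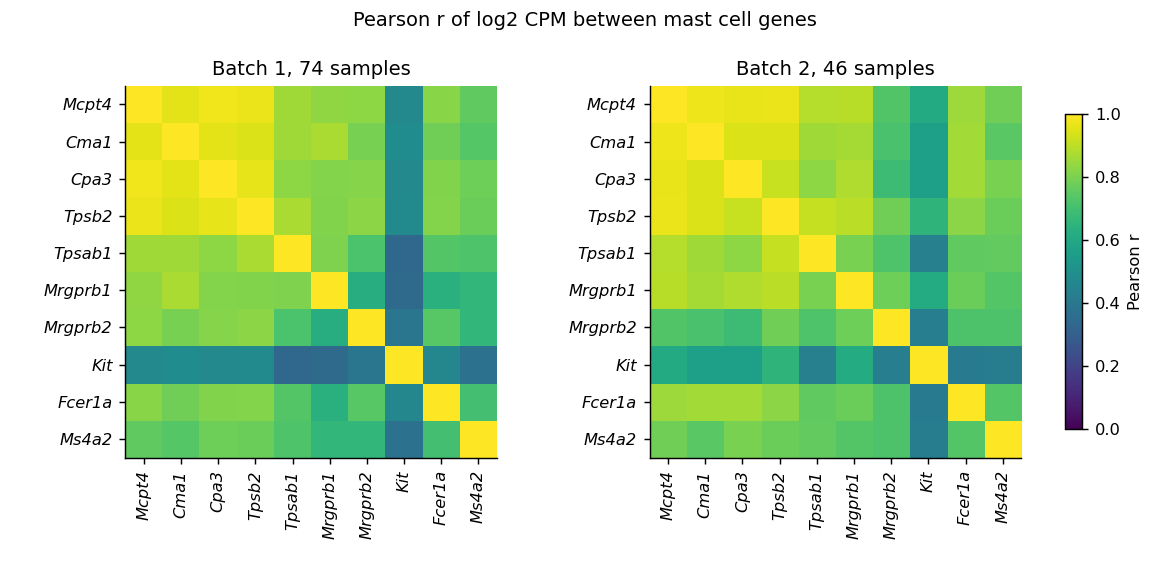
Pearson r of log2 CPM between each pair of the 10 genes, on a color scale from 0 to 1, for the 74 samples of batch 1 (left) and the 46 samples of batch 2 (right). Mcpt4, Cma1, Cpa3 and Tpsb2 form the brightest block (0.948 to 0.977 in batch 1), and the row of Kit is the darkest (0.333 to 0.485 in batch 1).

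Other cell types that share some of these genes were checked by their defining markers. Basophils also carry the IgE receptor, and their proteases Mcpt8 and Prss34 were at 0 in 54 and 59 of the 74 samples of batch 1 and in 25 and 28 of the 46 of batch 2. Neither exceeded 0.312 CPM in any sample. The cytokine gene Il4, also on the list, was at 0 in 54 and 28 samples. The sum of the 5 basophil genes had group medians from 4.84 to 15.7 CPM, nearly all of it from the integrin Itga2 (median 6.16 CPM in batch 1 and 7.97 CPM in batch 2), with Cd200r3 at 0.337 and 0.459 CPM. Itga2 is also made by platelets and other cells. Melanocyte pigment genes were at or near 0 in most samples (Tyr at 0 in 60 of 74 and 32 of 46), but reached 48.8 CPM for Dct in batch 1 and 55.0 CPM in batch 2. The summed melanocyte list had an r of 0.505 with Kit in batch 1 and 0.615 in batch 2, against 0.169 and 0.168 with Mcpt4. Such an r with Kit was not particular to melanocytes: the endothelial list had 0.51 and 0.612 and the adipocyte list 0.421 and 0.794. Others were negative in both batches, such as the macrophage list (−0.0587 and −0.608). The part of any of these cells in the level of Kit was not tested.

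The first comparison asked whether NOD scaffolds differed from those of the diabetes-resistant strain. Both chymases, both tryptases, Cpa3 and Mrgprb2 were lower in NOD mice, by 2.66 to 3.26-fold. The other receptors of mast cells had estimates of 2.13 to 2.88-fold lower that did not pass the test, and Kit was at 1.16-fold lower. Averaged over the biopsies of a mouse within batch 1, Mcpt4 was 16.2, 11.2, 11.3, 4.74 and 18.0 CPM in the 5 NOR mice, 1.19, 4.47, 8.08 and 3.99 CPM in the 4 nonprogressors and 5.75, 6.26, 2.49, 7.04 and 3.89 CPM in the 5 progressors. NOR mouse 4 lay within the NOD range, and the other NOR mice lay above all NOD mice. Tpsab1 was 3.60, 3.52, 3.71, 2.72 and 4.14 CPM in NOR mice against 0.397 to 1.31 CPM in nonprogressors and 0.453 to 1.66 CPM in progressors. How many of all genes separate the mice of the strains in this way was not counted. Mrgprb2 lay between 0.180 and 0.411 CPM in NOR mice and between 0.0229 and 0.175 CPM in NOD mice. Kit overlapped throughout, with 7.38 to 12.4 CPM in NOR mice, 6.54 to 11.9 CPM in nonprogressors and 7.08 to 12.2 CPM in progressors.

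**Figure D2:**
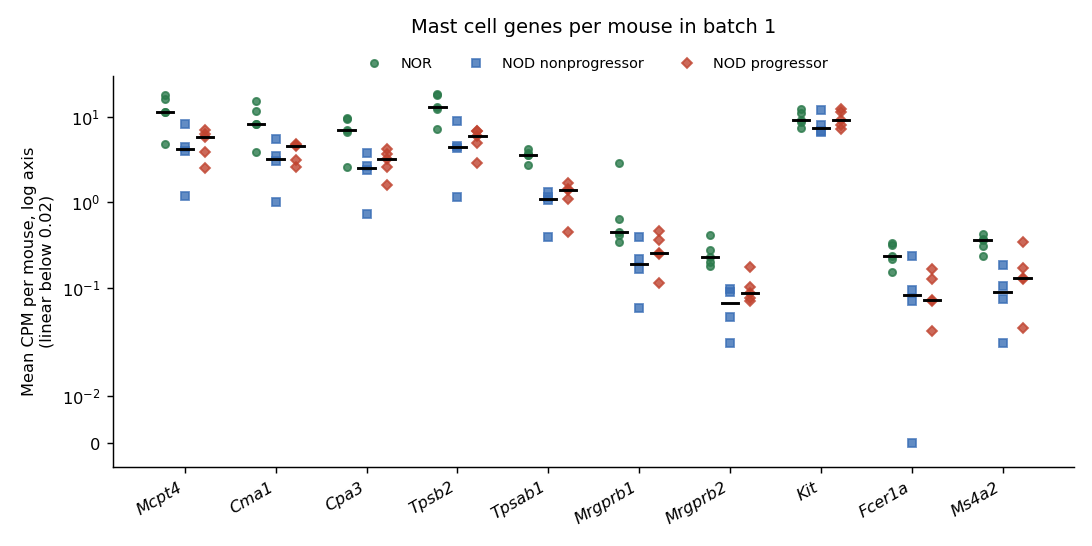
Mean CPM per mouse over its biopsies in batch 1, on a log axis that is linear below 0.02, for each of the 10 genes. Points are mice (5 NOR, 4 NOD nonprogressors and 5 NOD progressors) and bars are group medians; Tpsab1 of the NOR mice (2.72 to 4.14) lies above that of all NOD mice, while Kit overlaps between the groups.

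Counts were summed per mouse and tested with edgeR's quasi-likelihood test, with Benjamini-Hochberg adjustment over the 23387 genes tested. By this test, 6 of the 10 genes were lower in NOD mice and none was higher, where 5.11% of all genes were called lower and 3.87% higher. These were Tpsab1 (log2 fold change −1.70 ± 0.29 SE, adjusted p = 0.00124), Mrgprb2 (−1.60 ± 0.31, adjusted p = 0.00423), Tpsb2 (−1.54 ± 0.33, adjusted p = 0.008), Cma1 (−1.41 ± 0.33, adjusted p = 0.0136), Mcpt4 (−1.46 ± 0.36, adjusted p = 0.0198) and Cpa3 (−1.43 ± 0.35, adjusted p = 0.0206). The IgE receptor chains did not pass, at −1.53 for Fcer1a (adjusted p = 0.0614) and −1.29 for Ms4a2 (adjusted p = 0.0947), nor did Mrgprb1 at −1.09 (adjusted p = 0.0775). Kit was at −0.21 (95% interval −0.56 to 0.14, adjusted p = 0.486). The median of the 10 genes was −1.44, against −0.00161 over all genes tested. Without NOR mouse 5, 3 genes were still called (Tpsab1, Tpsb2 and Mrgprb2), without NOR mouse 1 there were 4, and without progressor 2 there were 9. The counts rested in part on the oldest mice: without the 22-week samples only Tpsab1 (−1.26) and Mrgprb2 (−1.17) were called. At 6 weeks alone, with 4 NOR and 9 NOD samples, edgeR called none of the 6 genes that could be tested (1.25% of genes were called lower and 0.865% higher), 4 had an unadjusted p under 0.05, and estimates ran from −0.07 for Kit to −1.51 for Tpsab1. Without the 18-week library of NOR mouse 5 there were also 6 calls, and the mean of that mouse was then 20.8 CPM for Mcpt4, 4.2 CPM for Tpsab1 and 0.705 CPM for Mrgprb1 (18.0, 4.14 and 2.91 CPM with it). The strain comparison also moved with skin markers: all 8 genes of the hair follicle list had estimates above 0 (median 7.27) and 7 had an unadjusted p under 0.05, though none passed. Of the macrophage list 4 of 8 genes were called lower in NOD mice (list median −0.17), and of the eosinophil list 1 of 6 was called lower (Siglecf, −0.50) and 4 had an unadjusted p under 0.05. The part of such cells in the result was not tested.

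Against nonprogressors alone, which never became diabetic, the same direction was seen in all 10 genes and 3 passed the test. Tpsab1 was 3.75-fold lower (log2 −1.91 ± 0.30, adjusted p = 0.00432), Mrgprb2 4.02-fold lower (−2.01 ± 0.38, adjusted p = 0.0144) and Tpsb2 3.53-fold lower (−1.82 ± 0.43, adjusted p = 0.0364) than in NOR. Of all genes, 3.63% were called lower and 2.63% higher. Mrgprb2 had 6, 15, 9, 4 and 1 counts in nonprogressors at 6, 10, 14, 18 and 22 weeks, and 18, 20, 47, 18 and 63 in NOR. It passed the filter on low counts through the NOR mice, so its call gives no support, with or without the 22-week samples. Cma1, Mrgprb1, Cpa3 and Mcpt4 lay just past the threshold, with adjusted p from 0.0511 to 0.06, and DESeq2 called 9 of the 10. This comparison shares the NOR samples with the one above. The count rested on single mice: it was 2 without NOR mouse 1, 2, 3 or 5 or nonprogressor 2 or 3, 3 without nonprogressor 4, 4 without nonprogressor 1 and 6 without NOR mouse 4. Without the 22-week samples 2 genes were called, Tpsab1 (−1.36, adjusted p = 0.0331) and Mrgprb2 (−1.46, adjusted p = 0.0392), 3 had an unadjusted p under 0.05 and the median of the 10 genes was −0.92, against −1.73 with them. Without the 18-week library of NOR mouse 5 the count was 3, with a median of −1.72. In the same fit 4 of 8 macrophage genes were called lower (list median −0.27), 1 of 6 eosinophil genes was lower (Siglecf, −0.61) and 1 of 5 epidermis genes was higher, and the part of these cells was not tested.

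The next question was how these genes changed with age where no diabetes followed. Scaffolds were exchanged weekly from 6 weeks of age, so later samples followed more surgeries and may differ in time in place. In every comparison with 6 weeks, in either strain, age, surgeries and time in place cannot be told apart. In NOR mice all 10 genes had estimates of 1.72 to 6.26-fold higher at 22 weeks than at 6 weeks, and Ms4a2, the IgE receptor beta chain, was the one that passed the test after adjustment. Mcpt4 was 7.48, 11.2, 2.24 and 4.68 CPM at 6 weeks and 41.1, 28.1, 22.6, 8.32 and 40.8 CPM at 22 weeks. Mouse 4 at 22 weeks lay below the highest 6-week sample, and the other 4 lay above all of them. Ms4a2 was 0.123, 0.393, 0.0521 and 0 CPM at 6 weeks and 1.39, 0.802, 0.526, 0.55 and 1.28 CPM at 22 weeks, with no overlap. Fcer1a went from 0.0521 to 0.175 CPM at 6 weeks to 0.344 to 1.02 CPM at 22 weeks, and Tpsb2 from 3.95 to 10.6 CPM to 12.2 to 45.1 CPM. Altogether 6 genes (Cma1, Tpsb2, Tpsab1, Mrgprb1, Fcer1a and Ms4a2) had all 5 samples at 22 weeks above all 4 at 6 weeks, as did 1.6% of all genes with a count.

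Ages between were not ordered in this way. At 10 weeks Mcpt4 stayed between 3.38 and 6.23 CPM in all 5 NOR mice, at 14 weeks it spread from 2.1 to 33.1 CPM, and at 18 weeks it was 16.7, 2.13, 3.93 and 6.85 CPM. The last of these values is from the library of mouse 5 with most counts on ribosomal RNA and rests on 7 counts. In that library Mrgprb1 stood at 11.7 CPM from 12 counts and Cma1 at 16.6 CPM from 17 counts, out of proportion to the 3 counts of Cpa3.

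With each age as a group and edgeR's test, Ms4a2 alone passed between 22 and 6 weeks (log2 fold change 2.65 ± 0.60, adjusted p = 0.0322), where 0.642% of all genes were called higher and 0.438% lower. All 10 estimates were above 0 and 7 had an unadjusted p under 0.05, from 0.79 for Kit (adjusted p = 0.503) to 2.58 for Fcer1a (adjusted p = 0.145). Mcpt4 was at 2.15 ± 0.71 (95% interval 0.69 to 3.62, adjusted p = 0.18) and Tpsb2 at 2.19 ± 0.67 (adjusted p = 0.139). Ms4a2 was at 0.0904 to 0.183 CPM at 10 weeks, 0.134 to 0.496 CPM at 14 weeks and 0 to 0.326 CPM at 18 weeks, and without the 22-week samples it did not pass the filter on low counts. Having passed that filter through the group where it is high, it gives no support by its call. The 6 genes that could be tested without these samples, as a trend over 6 to 18 weeks, had a median of 1.16 and none was called or had an unadjusted p under 0.05. The call of Ms4a2 was also lost with the mouse as a block (2.70, with an adjusted p of 0.0706), and when mouse 1, mouse 4 or mouse 5 was left out (lowest estimate 2.04, highest adjusted p 0.37). DESeq2 called 3 of the 10. Eosinophil markers moved with this comparison: the sum of the 7-gene list ran from 4.54 to 6.31 CPM at 6 weeks and from 7.57 to 17.3 CPM at 22 weeks, with Ear1 (log2 3.50) and Ear2 (2.05) called higher. The eosinophil peroxidase gene Epx was at 0 in 47 of the 74 samples. The part of these cells in the result was not tested.

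**Figure D3:**
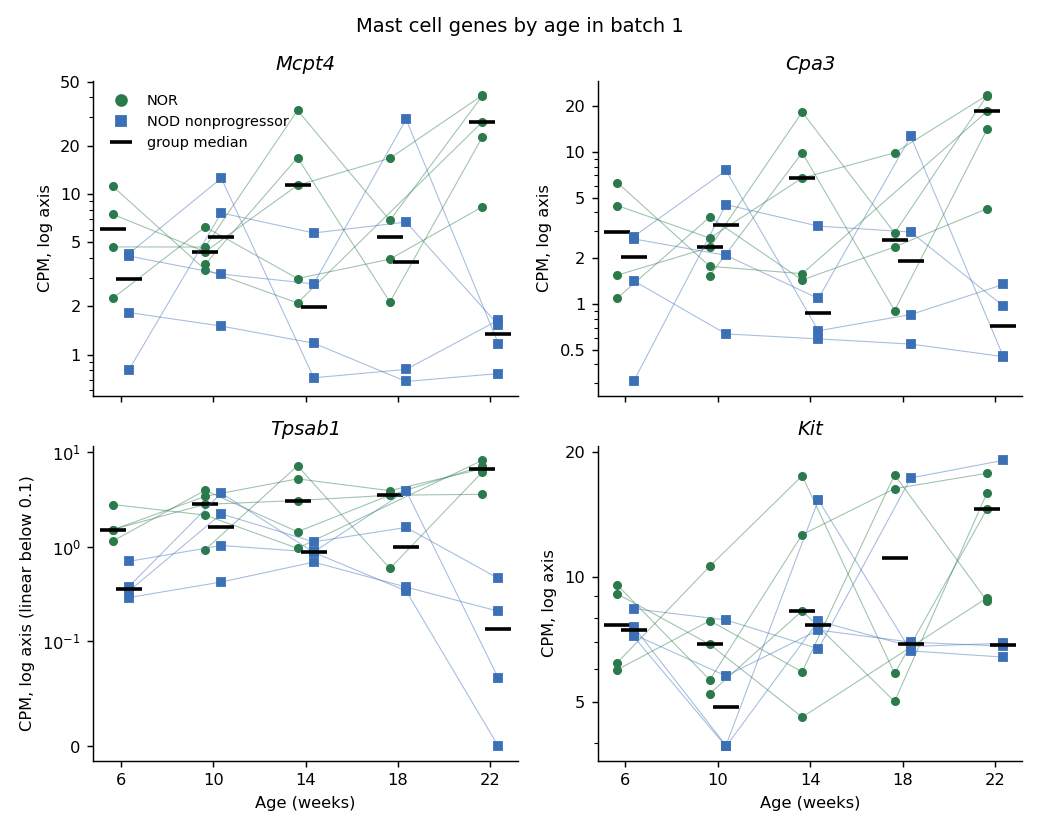
CPM of Mcpt4, Cpa3, Tpsab1 and Kit against age in weeks in batch 1, on log axes (that of Tpsab1 is linear below 0.1). Circles are NOR and squares NOD nonprogressor scaffolds, thin lines join biopsies of a mouse and bars are group medians; at 22 weeks the NOR samples of Mcpt4 (8.32 to 41.1) lie above those of the nonprogressors (0.762 to 1.64), and Kit overlaps.

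In nonprogressors of the same batch no gene passed the test between these ages, and 6 of the 7 that could be tested had estimates below 0. Mcpt4 was 1.83, 0.804, 4.11 and 4.26 CPM at 6 weeks and 0.762, 1.53, 1.17 and 1.64 CPM at 22 weeks. Tpsab1 was 0.29, 0.34, 0.7 and 0.379 CPM at 6 weeks and 0.208, 0.462, 0.0647 and 0 CPM at 22 weeks. At 22 weeks Mrgprb1, Mrgprb2, Fcer1a and Ms4a2 each had 1 count over the 4 libraries. In between, mouse 3 at 18 weeks reached 29.2 CPM for Mcpt4 and mouse 4 at 10 weeks 12.5 CPM, so that high levels were not absent from nonprogressors. That library of mouse 3 was the shallowest of all samples, with 4722396 counts in total and 150 of Mcpt4. Of the 7 genes that could be tested between 22 and 6 weeks, edgeR and DESeq2 called none and none had an unadjusted p under 0.05 (11.6% of all genes were called higher and 9.85% lower). Estimates ran from −2.83 for Mrgprb1 to 0.38 for Kit, and the interval of Mcpt4 (−1.12) reached from −3.22 to 0.97. As a trend over 6 to 18 weeks, without the 22-week samples, the 7 genes tested had a median of 1.17, and none was called or had an unadjusted p under 0.05.

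At 22 weeks the strains did not overlap in 9 of the 10 genes, Kit being the exception, and all 5 NOR samples were above all 4 nonprogressor samples, as in 2.96% of all genes. Cpa3 was 23.5, 18.5, 14, 4.23 and 23.4 CPM in NOR against 0.451, 0.971, 0.453 and 1.34 CPM in nonprogressors. Fitted on these samples alone, edgeR called the 5 proteases lower in nonprogressors (4.52% of all genes were called lower and 2.54% higher), with log2 fold changes of −4.52 ± 0.51 for Mcpt4 (adjusted p = 0.000927), −4.93 ± 0.48 for Cma1 (adjusted p = 0.000374) and −4.69 ± 0.56 for Tpsb2 (adjusted p = 0.0012). Kit was 17.8, 8.92, 15.9, 8.77 and 14.6 CPM in NOR against 6.83, 6.43, 19.1 and 6.94 CPM in nonprogressors (−0.45, adjusted p = 0.515). Mcpt4 had 22, 33, 18 and 22 counts in the 4 nonprogressor libraries. Tpsb2, Cpa3, Cma1 and Tpsab1 had 91, 59, 53 and 17 over all 4, and Mrgprb1, Fcer1a and Ms4a2 had 1 each. The 5 NOR samples alone could carry a gene past the filter on low counts, so calls other than that of Mcpt4 are not counted as support. This fit was added after the values were seen. The 7SL share of the nonprogressor libraries at this age (16.6% to 38.3%) did not overlap with that of the NOR libraries (5.97% to 10.5%), and its part in the result was not tested.

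Whether the change with age differed between the strains was tested as an interaction. None of the 10 genes passed edgeR's test (0.63% of all genes were called higher and 0.601% lower), 8 had an unadjusted p under 0.05, and DESeq2 called 1. The proteases had estimates from −2.89 for Tpsab1 to −3.78 for Cma1 (adjusted p = 0.0977 for Cma1, 0.168 for Mcpt4), where a negative value means a smaller rise in nonprogressors. Kit was at −0.38 (95% interval −1.54 to 0.77). The interval of Mcpt4 (−5.77 to −0.74) lay below 0, but the adjusted value did not pass. With the ages up to 18 weeks as a linear trend, the 7 genes tested had a median of −0.29 and none had an unadjusted p under 0.05. Leaving out the ribosomal and 7SL RNA called none.

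In the second batch the nonprogressors were sampled at 6 and 14 weeks, and there the genes did stand higher at the later age. Tpsb2 was 2.05, 2.28, 2.7, 3.25, 3.02, 1.36 and 2.83 CPM in 7 mice at 6 weeks and 1.12, 5.12, 11.7, 9.61, 6.55 and 8.97 CPM in 6 mice at 14 weeks. Mouse 5 was below its own 6-week value, and the other 5 samples at 14 weeks were above all 6-week samples. Kit ran from 4.59 to 14.5 CPM at 6 weeks and was 2.39, 62.9, 32.1, 38.4, 19.4 and 22.4 CPM at 14 weeks, with mouse 5 again the lowest. By edgeR, 5 of the 8 genes tested were higher at 14 weeks, where 16.8% of all genes were called higher and 17.3% lower: Tpsab1 (log2 1.25 ± 0.28, adjusted p = 0.00375), Tpsb2 (1.54 ± 0.39, adjusted p = 0.00773), Kit (1.62 ± 0.49, adjusted p = 0.021), Mcpt4 (1.17 ± 0.41, adjusted p = 0.0411) and Cma1 (1.13 ± 0.41, adjusted p = 0.0446). When the mouse entered as a block 2 calls held, Tpsb2 (1.36, adjusted p = 0.0436) and Tpsab1 (1.17, adjusted p = 0.0493). All 8 genes of the adipocyte list (median log2 5.22) and all 8 of the skeletal muscle list (4.41) were called higher and all 8 of the fibroblast list lower (−1.32) in the same comparison, and their part in the change was not tested. In batch 1 the 14-week nonprogressors had 0.718 to 5.72 CPM of Mcpt4, against 0.804 to 4.26 CPM at 6 weeks.

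At 6 weeks of age, before glucose rose, progressors were compared with nonprogressors. Mcpt4 was 5.63, 2.1, 2.12, 2.83 and 4.12 CPM in progressors of batch 1 and 4.95, 0.205, 3.05, 5.91 and 1.37 CPM in those of batch 2. Nonprogressors ran from 0.804 to 4.26 CPM in batch 1 and from 2.07 to 3.96 CPM in batch 2, overlapping with the progressors in both. With the batch as a term, edgeR called none of the 7 genes tested, none had an unadjusted p under 0.05, and DESeq2 called none of the 10, where 0% of all genes were called in either direction. Estimates lay between −0.23 for Kit (95% interval −0.69 to 0.23) and 0.53 for Tpsab1 (−0.22 to 1.27), and Mcpt4 was at 0.14 (−0.63 to 0.90). The batches themselves differed at 6 weeks in 30.1% of genes upward and 30.7% downward, while none of the 7 mast cell genes passed edgeR's test; Mrgprb1 alone had an unadjusted p under 0.05 (log2 1.09, adjusted p = 0.0683), and DESeq2 called 1 of 10. Mcpt4 differed between batches by 0.01 (95% interval −0.77 to 0.78).

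Along the way to onset, the genes followed different courses in the progressors of the 2 batches. Samples before and at onset are labelled by time to onset and not by age, so nearing onset and age cannot be told apart. In batch 1 Mcpt4 was low at −5 weeks (4.79, 1.08, 0.388, 1.49 and 0.856 CPM in mice 1 to 5) and at −3 weeks (0.895 to 4.95 CPM). It was higher at −1 week (2.33, 11.8, 7.74, 5.54 and 8.44 CPM), and at onset it was 14.9, 15.2, 0.768, 24.4 and 1.1 CPM. Mice 1, 2 and 4 were at their highest at onset, and mice 3 and 5 were lower at onset than at −1 week. In batch 2 the order was the other way. Mcpt4 was 7.67, 10.9, 6.98, 4.87 and 8.54 CPM at −5 weeks (mice 6 to 10), 2.6 to 16.3 CPM at −3 weeks and 1.36 to 11.8 CPM at −1 week, and it was 1.15, 1.24, 1.16, 0.399 and 1.27 CPM at onset. All 5 mice of batch 2 were lower at onset than at −5, −3 and −1 weeks.

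**Figure D4:**
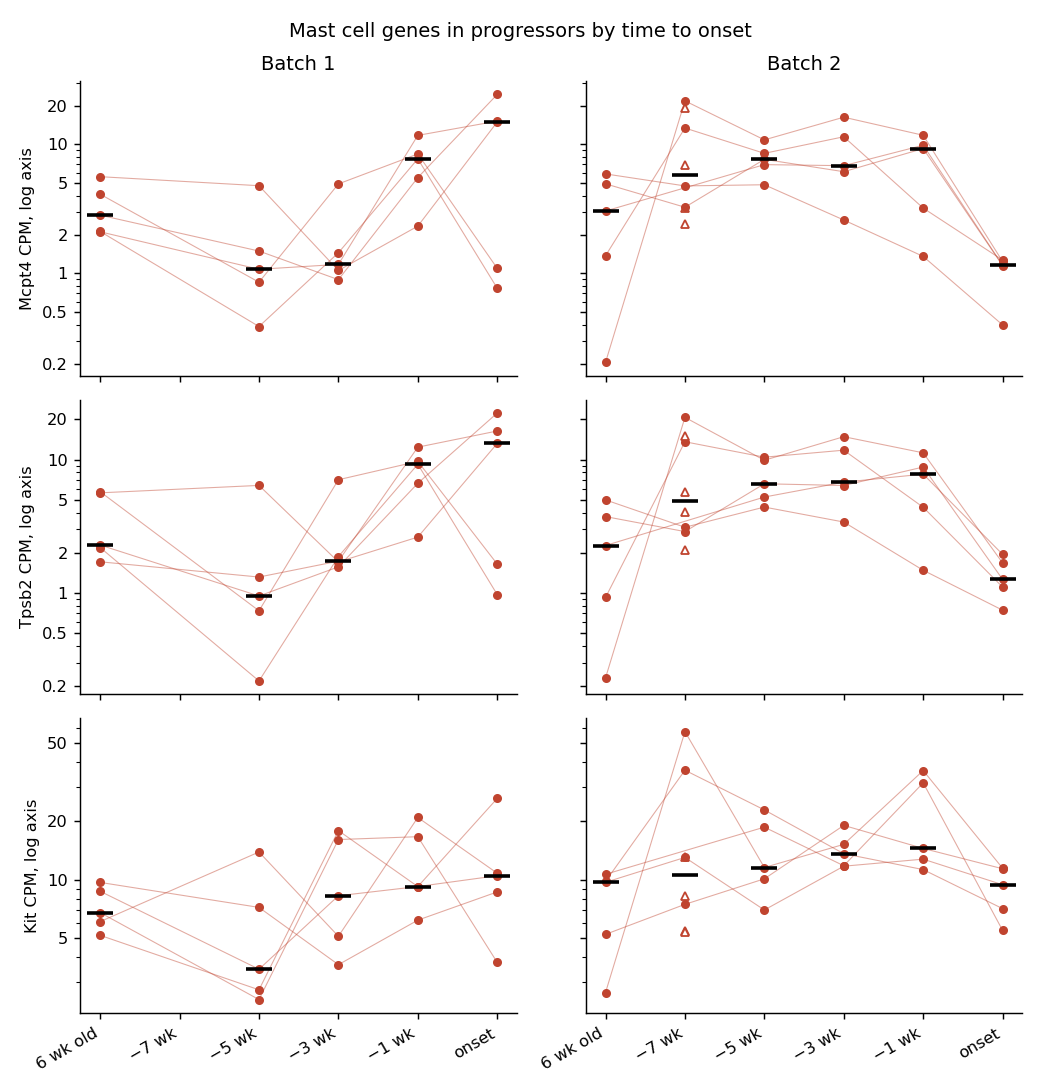
CPM of Mcpt4, Tpsb2 and Kit on log axes against time to onset in progressors of batch 1 (left, mice 1 to 5) and batch 2 (right, mice 6 to 10). Thin lines join biopsies of a mouse, bars are group medians and open triangles are the −7-week samples of mice 1 to 4; at onset Mcpt4 lies between 0.399 and 1.27 in batch 2, and in batch 1 it spreads from 0.768 to 24.4.

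The other proteases took the same courses, and so did the IgE receptor in batch 2. In batch 1 Fcer1a and Ms4a2 had 5 and 11 counts over all libraries at −5 weeks and 57 and 60 at onset. Neither could be tested within batch 1. Cpa3 at onset was 7.83, 8.77, 0.809, 15.4 and 0.996 CPM in batch 1, against 2.6, 0.775, 0.218, 0.976 and 0.336 CPM at −5 weeks. In batch 2 it was 1.07, 0.583, 0.499, 0.456 and 1.05 CPM at onset, against 8.14, 11.4, 6.69, 4.33 and 6.05 CPM at −5 weeks. Tpsb2 of batch 2 fell from between 4.4 and 10.4 CPM to between 0.741 and 1.94 CPM, and Ms4a2 from between 0.121 and 0.841 CPM to between 0 and 0.11 CPM. In batch 2, 8 genes (all but Mrgprb2 and Kit) had every onset sample below every −5-week sample, as did 2.17% of all genes, and in batch 1 no member was without overlap. Kit overlapped between these times, with 9.42, 11.4, 5.49, 11.4 and 7.1 CPM at onset and 6.99, 11.5, 18.6, 10.1 and 22.8 CPM at −5 weeks in batch 2.

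Pooled over both batches with the batch as a term, none of the 10 genes passed edgeR's test between onset and −5 weeks (0.827% of all genes were called higher and 0.945% lower). None had an unadjusted p under 0.05, DESeq2 called none, and estimates ran from 0.03 for Ms4a2 to 1.00 for Fcer1a. Within batch 2, edgeR called 7 of the 10 genes lower at onset, where 5.9% of all genes were called lower and 3.33% higher: Cpa3 (log2 −3.34 ± 0.68, adjusted p = 0.00217), Cma1 (−3.03 ± 0.70, adjusted p = 0.00605), Mcpt4 (−2.91 ± 0.71, adjusted p = 0.00907), Ms4a2 (−3.19 ± 0.86, adjusted p = 0.0173), Tpsb2 (−2.46 ± 0.67, adjusted p = 0.0183), Tpsab1 (−1.77 ± 0.56, adjusted p = 0.0431) and Mrgprb1 (−2.21 ± 0.71, adjusted p = 0.0469). Fcer1a (−2.65, adjusted p = 0.066), Mrgprb2 (−2.06, adjusted p = 0.0867) and Kit (−0.67, 95% interval −1.78 to 0.43) did not pass. Ms4a2 and Mrgprb1 had 6 and 40 counts over the 5 onset libraries and passed the filter on low counts through earlier times. Their calls give no support. Within batch 1 the estimates had the other sign. Cma1 was at 2.99 ± 0.79 (adjusted p = 0.089), Cpa3 at 2.80 (adjusted p = 0.102), Mcpt4 at 2.73 (adjusted p = 0.102), Tpsb2 at 2.52, Mrgprb1 at 2.41, Tpsab1 at 1.56 and Kit at 1.02. None of these 7 passed, 5 had an unadjusted p under 0.05, and 0.0051% of all genes were called higher and 0% lower. Within batch 2, the count of 7 rested on single mice: it was 4 without mouse 6 or mouse 7 and 2 without mouse 8, with Cma1 and Cpa3 called in all 9 fits that left out 1 mouse. With the mouse as a block, Tpsab1 (−1.75, adjusted p = 0.0661) and Mrgprb1 (−2.14, adjusted p = 0.0654) were no longer called.

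The difference between the batches was itself tested, in a comparison added after the values were seen. The change from −5 weeks to onset was lower in batch 2 than in batch 1 for 9 of the 10 genes, where 3.91% of all genes were called lower and 2.83% higher. It was −6.10 ± 1.03 for Cpa3 (adjusted p = 0.00048), −5.98 ± 1.04 for Cma1 (adjusted p = 0.000536), −5.60 ± 1.05 for Mcpt4 (adjusted p = 0.0011), −4.93 ± 1.03 for Tpsb2 (adjusted p = 0.00281), −3.28 ± 0.95 for Tpsab1 (adjusted p = 0.029) and −1.64 ± 0.66 for Kit (adjusted p = 0.121) on the log2 scale. Over the 5 samples of batch 1 at −5 weeks, Mrgprb2, Fcer1a, Ms4a2 and Mrgprb1 had 3, 5, 11 and 18 counts. In batch 2 at onset they had 18, 8, 6 and 40. They passed the filter on low counts through groups where they are high, so their calls give no support. DESeq2 called 9 genes, as did the fit with the mouse as a block. With single mice left out, 8 or 9 genes were called, Tpsab1 in 4 of 10 such fits and the other 8 in all. The median of the 10 genes was −5.47, against 0.0495 over all genes tested. Batch stands for both cohort and instrument, so which of these the difference goes with cannot be told apart.

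**Figure D5:**
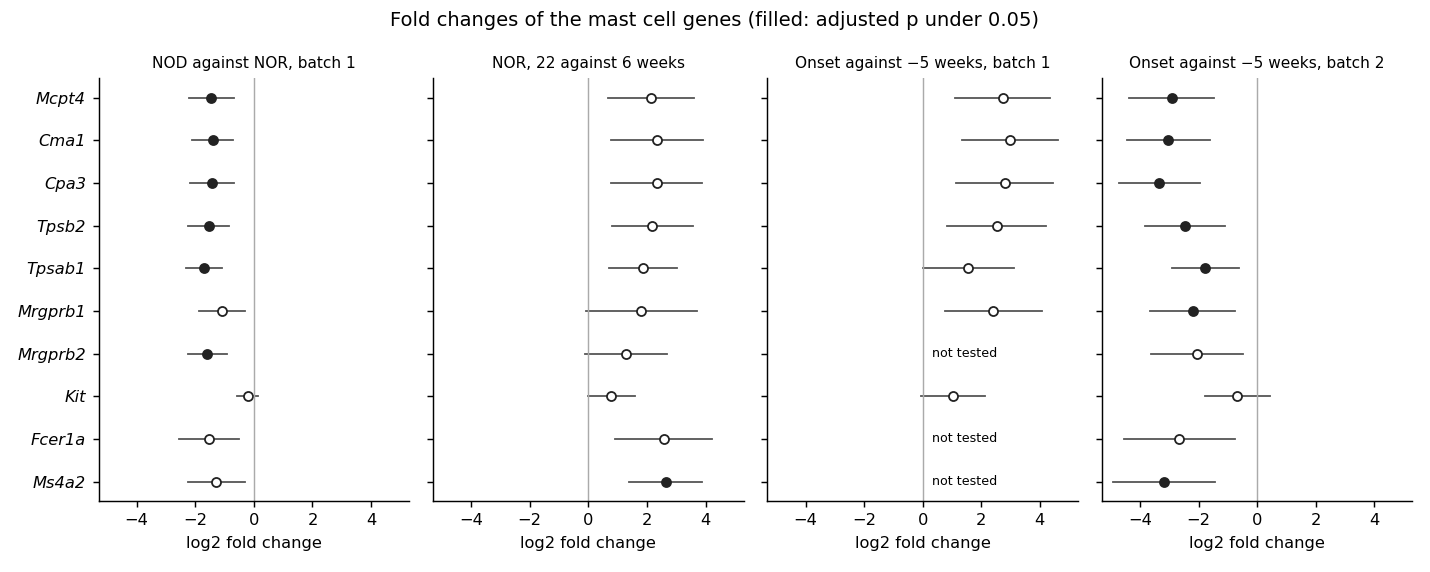
Log2 fold changes of the 10 genes by edgeR with 95% intervals, in 4 comparisons: NOD against NOR in batch 1, NOR at 22 against 6 weeks, and onset against −5 weeks within batch 1 and within batch 2. Filled points have an adjusted p under 0.05; the onset panels lie on opposite sides of 0 for the proteases (Cma1 2.99 in batch 1 and −3.03 in batch 2).

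Markers of other cells moved with the onset comparison. Within batch 2, 6 of 8 fibroblast genes, 5 of 8 endothelial genes and 2 of 3 eosinophil genes tested were called lower at onset. Between onset and −5 weeks, the difference between batches was also lower for 4 of 8 fibroblast genes, 5 of 8 endothelial genes and 3 of 6 eosinophil genes tested (Ear2 −3.53, Ccr3 −3.75 and Ear1 −3.41), and none of the 8 adipocyte genes passed (median −3.11). The summed fibroblast list in batch 2 was 5851 to 18168 CPM at onset and 14031 to 29142 CPM at −5 weeks, and in batch 1 it was 9789 to 43255 CPM and 18750 to 27038 CPM. The part of these cells in the result was not tested.

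Taken over all later times, the mean of −5, −3 and −1 weeks and onset in progressors was compared with 6 weeks, and none of the 10 genes passed. All 10 estimates were above 0, from 0.63 for Cpa3 to 1.13 for Mrgprb2, and 1 had an unadjusted p under 0.05 (Kit, 0.66, adjusted p = 0.0973), where edgeR called 19.6% of all genes higher and 19.9% lower. DESeq2 called none of the 10. The difference of this change between progressors and nonprogressors passed edgeR's test in none of the 10 (0% of all genes were called in either direction), with no unadjusted p under 0.05 among them, no call by DESeq2 and Mcpt4 at −0.04 (95% interval −1.46 to 1.38). Between batches the same change passed in none of the 10 by edgeR or DESeq2, with no unadjusted p under 0.05 and Mcpt4 at 0.34 (−1.23 to 1.91), where 2.89% of all genes were called higher and 1.77% lower.

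Samples from 7 weeks before onset were available in batch 2. Mcpt4 was 6.89, 2.42, 3.23, 19.3, 3.26, 21.8, 4.77 and 13.4 CPM in mice 1, 2, 3, 4, 6, 7, 9 and 10, against 0.205 to 5.91 CPM in the 5 progressors of that batch at 6 weeks. Tpsb2 (log2 1.82 ± 0.61, adjusted p = 0.0338) and Tpsab1 (1.47 ± 0.51, adjusted p = 0.0405) were called higher than at 6 weeks, where 9.75% of all genes were called higher and 9.32% lower, and all 10 estimates lay between 1.19 and 1.82. These calls rested on single mice: none of the 10 was called without mouse 4, 6, 7, 8 or 10, 4 were called without mouse 2 and 5 without mouse 9. In the fit blocked on the mouse, which leaves mice 6, 7, 9 and 10 as pairs, Kit alone was called (1.76, adjusted p = 0.035), and Tpsb2 was at 1.57 (adjusted p = 0.161). Kit at −7 weeks reached 57.5 CPM in mouse 7 and 36.4 CPM in mouse 10, and was 2.63 and 9.8 CPM in the same mice at 6 weeks. All 8 adipocyte genes were called higher in this comparison (median log2 5.46), and their part was not tested.

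Other genes of the mast cell program were taken from a list of 26 genes of granules, mediators and transcription factors, of which 19 to 21 could be tested in the comparisons given here. Between NOD and NOR, 6 of 21 were lower and none higher: the tryptase Tpsg1 (log2 −1.77, adjusted p = 0.00227), the protease Ctsg (−1.40, adjusted p = 0.0216), the transcription factor Gata1 (−1.61, adjusted p = 0.0295), the adenosine receptor Adora3 (−0.64), the monoamine transporter Slc18a2 (−0.34) and the adaptor Gab2 (−0.17). The median of the list was −0.07, and 5.11% of all genes were called lower and 3.87% higher. Tpsg1, Gata1 and Ctsg had medians of 0.0374, 0.0494 and 0.0986 CPM in batch 1. They were at 0 in 32, 17 and 17 of its 74 samples, so all their estimates given here rest on few counts. They could pass the filter on low counts through the groups where they are high, so their calls give no support. In NOR mice at 22 against 6 weeks, 0.642% of all genes were called higher and 0.438% lower. Of the list, 5 of 20 were higher: Tpsg1 (4.31, adjusted p = 0.0155), Adora3 (2.07), the IL-33 receptor Il1rl1 (1.68), the leukotriene C4 synthase Ltc4s (1.40) and the 5-lipoxygenase Alox5 (1.28). For onset against −5 weeks between batches, 3.91% of all genes were called lower and 2.83% higher. Of the list, 4 of 19 were lower, among them Ctsg (−5.60), the transcription factor Gata2 (−2.38) and the ectoenzyme Enpp3 (−2.13), and 3 were higher (the adaptor Lat2 0.84, Mitf 0.59 and Gab2 0.41). Several of these genes, such as Gab2, Alox5 and Mitf, are widely expressed outside mast cells. Of 12 ligands and receptor partners, Kitl, which encodes the Kit ligand, was lower in the same comparison (−1.53, adjusted p = 0.00749), and none of the 7 that could be tested passed between the strains or with age in NOR mice.

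Among genes that are no members, the 10 most like the members were found from the smaller of the 2 batches' Pearson r with the mean log2 CPM of the 10 genes, over 74 and 46 samples and 15292 genes. These were the complement component C3 (r of 0.818 and 0.855 in batches 1 and 2), the eosinophil-attracting chemokine Ccl11 (0.759 and 0.774), Smpd3 (0.741 and 0.838), the actin-severing protein Gsn (0.737 and 0.812), Dpep1 (0.752 and 0.698), Hmcn2 (0.688 and 0.765), Gprc5c (0.682 and 0.687), Chp2 (0.689 and 0.662), Cd209g (0.66 and 0.708) and Tmem132b (0.701 and 0.658). In all, 99 genes had both values over 0.5. The genes nearest to Kit were others, a comparison chosen after its values were seen, and they were led by the chloride channel Ano1 (0.751 and 0.89), followed by Gprin3, Itga3, the smooth muscle myosin Myh11 (0.72 and 0.882), Lama5 and Chil1, with Kitl in place 7 (0.688 and 0.745).

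The balance between the proteases differed between the batches. The ratio of Cma1 to Mcpt4 counts had a median of 0.718 over the 74 samples of batch 1, where 8 samples exceeded 1, and of 1.14 over the 46 of batch 2, where 36 did. Cpa3 to Mcpt4 went from 0.59 to 0.966, Cma1 to Tpsb2 from 0.692 to 1.22, and Tpsab1 to Tpsb2 from 0.265 to 0.2. Within batch 1 the Cma1 to Mcpt4 ratio was alike in the strains, with medians of 0.721 in NOR and 0.714 in NOD samples. Progressors 1 to 4 have samples in both batches, those of batch 2 being all from −7 weeks. Their Cma1 to Mcpt4 ratio had a median of 0.733 over 20 samples in batch 1 and 1.09 over 4 samples in batch 2, that of Cpa3 to Mcpt4 0.584 and 0.875, and that of Cma1 to Tpsb2 0.704 and 1.21. In the same mice Tpsab1 to Tpsb2 was 0.222 in batch 1 and 0.327 in batch 2, the other way from the batches as a whole. Time and instrument cannot be told apart in these 4 samples. Words of 50 bases from the transcripts show how far reads could be shared: 5.48% of the words of Mcpt4 also occur in transcripts of Cma2 and 5.38% of those of Cma1 in Gm48934, 2.1% of those of Ms4a2 occur in Ms4a4b, and the other 7 genes, both tryptases included, share none.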

How the data were processed

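Total RNA of single scaffolds was ribosome-depleted and sequenced, and the authors deposited expected counts per gene, one table for each batch, as whole numbers. The submitters' processing notes name cutadapt, FastQC, MultiQC, STAR, RSEM and GRCm38, and versions and settings are not given in the sources used here. Each of the 120 samples was grouped by its labels. The 4 rows that name no gene held 1 count and were left out. Of 239 pairs of replicates, the most alike had a chi-square per degree of freedom of 11.97, so no library looked like a copy of another.

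Comparisons used edgeR 4.0.16 (quasi-likelihood test, filterByExpr, TMM scaling) in R 4.3.3 over all genes that passed the filter, with Benjamini-Hochberg adjustment and a threshold of 0.05, and 95% intervals took the test's degrees of freedom. Strain was tested on counts summed per mouse, ages and times with each time as a group, and comparisons over both batches with the batch as a term. Genes with few counts in a comparison were not tested. DESeq2 1.42.0, other scalings, no filter, single batches, mice left out in turn and the mouse as a block were alternatives. On simulated data, 94.4% of genes changed by 2 on the log2 scale were recovered for NOR age (19541 genes), 99.5% for strain (23493) and 100% for the 6-week comparison (20064). The simulation gave all genes the same spread, left out genes with few counts and had no effect of the mouse. Its shares do not say how often such changes of the 10 genes would be called. Mcpt4, at 2.15 ± 0.71 in NOR age, was not called. Per-sample CPM was TMM-scaled over all samples, log2 CPM used a prior count of 1, and promoters were read from RefSeq.

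Mouse numbers in the labels tie biopsies to the same animal, so the mouse is the block. Deviations from group means correlated between biopsies of a mouse no more than between mice (mean r −0.0229 against 0.00665 in NOR, 0.00184 against −0.0018 in nonprogressors and −0.0268 against 0.00602 in progressors, over 2000 genes). Several NOD groups hold samples of both batches, 1 library of batch 1 (nonprogressor 2 at 6 weeks) is labelled as prepared again, and p-values of progressor and age fits treat biopsies of a mouse as separate samples unless the block is named. The genes and marker lists were chosen with earlier results of these data known. All 10 genes are named in every comparison, other mast cell genes by smallest p up to 6 a comparison, and genes of like pattern as the 10 with the highest smaller r of both batches, among those with a mean of 1 CPM or more in each batch.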

Additional observations from a re-analysis of the deposited data

Results flagged for a closer look

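Single scaffolds stood apart from the others of their group by Dixon's criterion in 27 of 253 tests. The genes are correlated, share libraries and in part rest on few counts, so the number that chance alone would give is not known. Among NOR samples at 18 weeks, Tpsab1 was lowest in mouse 3 (0.589 CPM) and Mrgprb1 highest in mouse 5 (11.7 CPM), the library with most counts on ribosomal RNA. In nonprogressors of batch 1, the 18-week scaffold of mouse 3 was highest for Tpsb2 (31.5 CPM), Kit (17.3 CPM), Fcer1a (0.973 CPM) and the sum of the 10 genes (116 CPM). Its library was the shallowest of all samples, and Fcer1a rests on 5 counts there. Mouse 2 at 14 weeks was highest for Mrgprb1 (0.344 CPM) and Kit (15.3 CPM). At 22 weeks Mrgprb1 (0.0647 CPM) and Kit (19.1 CPM) were highest in mouse 3, and Mrgprb2, Fcer1a and Ms4a2 in mouse 2 (0.0462 CPM each, from 1 count). At 6 weeks Mrgprb2 was at 0 in mouse 2, and Ms4a2 was highest in mouse 4 (0.233 CPM).

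In progressors of batch 1, mouse 5 at −3 weeks was highest for Mcpt4 (4.95 CPM), Cpa3 (3.22 CPM), Tpsb2 (7.06 CPM) and Fcer1a (0.0346 CPM). At −5 weeks mouse 1 was highest for Mcpt4 (4.79 CPM), Tpsb2 (6.4 CPM) and Tpsab1 (1.87 CPM), and mouse 2 for Ms4a2 (0.236 CPM). In batch 2 at −5 weeks Fcer1a was lowest in mouse 6 (0.165 CPM) and Ms4a2 highest in mouse 7 (0.841 CPM), and at onset Mcpt4 was lowest in mouse 9 (0.399 CPM) and Ms4a2 highest in mouse 10 (0.11 CPM).

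The change from −5 weeks to onset differed between the batches by the test of the difference itself in 9 genes, by −5.60 for Mcpt4, −5.98 for Cma1, −6.10 for Cpa3, −4.93 for Tpsb2, −3.28 for Tpsab1, −4.57 for Mrgprb1, −5.53 for Mrgprb2, −5.87 for Fcer1a and −5.41 for Ms4a2 (log2, batch 2 minus batch 1). The values of Mrgprb1, Mrgprb2, Fcer1a and Ms4a2 rest on few counts, and their calls give no support.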

How the results depend on the processing

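Calls are counts of the 10 genes past the threshold. The number called over all genes also moved with the setting, so a change in these counts is not particular to the 10 genes. Between NOD and NOR, 6 were called, 0 with 6-week samples alone and 2 without 22-week samples. Between nonprogressors and NOR, 3 became 9 by DESeq2, 5 with scaling by the library total, 6 with each sample entered separately, 1 with 6-week samples alone, 8 with 22-week samples alone (3 of them with 1 count in nonprogressors) and 6 without the 18-week library of nonprogressor 3. For NOR age, 1 became 3 by DESeq2, 5 with a linear trend, and 0 with the library total, with both strains in 1 fit, with the replicate block and with a trend without 22 weeks. For nonprogressors at 14 weeks, 5 became 2 with the block. With the library total, 1 was called for nonprogressor age and 1 for age by strain, where the median of all genes moved to −0.69 and −0.59. In these fits 11999 of 19715 and 298 of 20647 genes were called lower. DESeq2 called 1 for age by strain. For batch at 6 weeks, 1 was called by DESeq2, with the library total and without the filter. There, 6644 of 36108 genes were called higher by DESeq2, 7347 of 20090 with the library total and 6675 of 36108 without the filter. At 1 week before onset alone against 6 weeks, 1 was called higher, where 2626 of 21279 genes were called higher and 2979 lower. For −7 weeks, 2 became 4 by DESeq2, 0 without the filter, 1 with the block and 1 with mice 6, 7, 9 and 10 only. Onset against −5 weeks within batch 2 turned the pooled direction and called 7 (Mcpt4 −2.91, Cma1 −3.03, Cpa3 −3.34, Tpsb2 −2.46, Tpsab1 −1.77, Mrgprb1 −2.21, Ms4a2 −3.19). Leaving out 1 mouse gave 3 to 9 calls for NOD against NOR, 2 to 6 for nonprogressors against NOR, 0 to 1 for NOR age, 0 for nonprogressor age and age by strain, 0 to 5 for −7 weeks, 2 to 7 for onset in batch 2 and 8 to 9 for its difference between batches. Except for fewer samples in some fits, the cause was not tested. The other 143 counts stayed within 1.5 times the reported ones. The block changed no other call than those given here and beside the results. Depth limits Fcer1a, Mrgprb2 and Ms4a2, with median counts of 3 or 4.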

Other observations

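For 6 nonprogressor samples the labels give days since implantation and no age in weeks, and these enter no comparison. Mcpt4 was 4.45 and 5.2 CPM at 31 days, 9.16 and 4.8 CPM at 38 days and 23.1 and 13.9 CPM at 108 days. Tpsab1 was 0.697 and 0.968 CPM at 31 days, 2.63 and 1.49 CPM at 38 days and 7.09 and 3.67 CPM at 108 days. The summed eosinophil list was 9.56 and 9.76 CPM at 31 days, 7.82 and 8.07 CPM at 38 days and 15.1 and 15.6 CPM at 108 days. Kit was 7.67 and 7.52 CPM at 31 days, 14.7 and 9.6 CPM at 38 days and 10.6 and 10.3 CPM at 108 days.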
